A study of Schizosaccharomyces pombe with 27 samples.

Results

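Polymerase usage sequencing (Pu-Seq) of wild-type fission yeast (S. pombe) was used to set the DNA strands copied by Polε against those copied by Polδ. The 6 samples of the strain for Polε (655) and of the strain for Polδ (856), with WT gene dosage of Polδ, were taken from 27 samples in all. The other samples hold Polα strains and strains with extra copies of the Polδ genes. Each polymerase was covered by 3 samples, of which 2 were sequencing runs of experiment 1 and were summed, so that 2 libraries stood on each side, one per experiment.

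The strain for Polε carried the M630F mutation of cdc20, the catalytic subunit gene of Polε. The strain for Polδ carried the L591G mutation of cdc6, the catalytic subunit gene of Polδ. Both strains were h- with leu1-32, ura4-D18 and a kanR disruption of rnh201, which encodes the catalytic subunit of RNase H2. Both also carried an ade6 allele, which the strain list leaves unspecified for the strain for Polε. The WT strain for Polα, used here for fork direction and origins, carried a mutation of pol1, the catalytic subunit gene of Polα. It was also h- with leu1-32, ura4-D18, an ade6 allele and a kanR disruption of rnh201. Untreated cells were taken from exponentially growing cultures in YES medium. Each strain stands for one polymerase allele, so strain and polymerase cannot be told apart.

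A replication fork copies one parental strand continuously (the leading strand) and the other in short Okazaki fragments (the lagging strand). Polε is known mainly for leading strand synthesis and Polδ for lagging strand synthesis, which it takes over from primers laid down by Polα-primase. The mutated polymerases insert more ribonucleotides (rNMPs) than usual, and without RNase H2 these stay in the DNA and mark the strand that each polymerase made. In each 300 bp bin, the polymerase track is the count on the top strand minus that on the bottom strand, divided by their sum. It runs from -1 to 1, and a perfect division of labour gives Polε and Polδ tracks of the same size and opposite sign.

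The libraries held 34475309 and 22947149 counts for Polε in experiments 1 and 2, against 38809643 and 17910616 counts for Polδ. The median bin had 761 and 542 counts for Polε, against 849 and 414 counts for Polδ, and at the depth of the shallowest of these libraries the 95% Wilson interval of a track of 0 ran from -0.0959 to 0.0959. PCR reads are not independent molecules, so this interval covers counting error only. Of 41908 bins, 41867 had at least 10 counts in each of the 4 libraries. In experiment 2 the log2 total of a bin correlated with its GC content at r = 0.585 for Polε and r = 0.616 for Polδ, against r = 0.0541 and r = 0.111 in experiment 1 (41867 bins that share the libraries). Over the deleted ura4 gene, 0 and 1 counts were found for Polε, and 30 and 0 for Polδ. The disrupted rnh201 gene still had 1092 and 665 counts for Polε, and 1253 and 724 for Polδ, and 3 of its 5 bins passed the count minimum. The methods describe the experiments as independent biological repeats, and the labels give the runs of experiment 1 as technical repeats.

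A set of 5 stretches of the top strand shows what the tracks were measured on. The first is the peak bin of the most efficient origin, near which both tracks changed sign, with runs of at least 5 A or T in capitals. The others are 4 of the bins named by the test for departures from a mirror described further on. They were picked from those named bins for an excess of C or G, so that excess shows nothing about named bins at large. C is in capitals where the sum of both tracks leaned to the top strand, and G where it leaned to the bottom strand. All are from the RefSeq assembly ASM294v3, written 5′ to 3′.
Origin, chrIII:369901-370200, top strand, between bqt3 and qcr9: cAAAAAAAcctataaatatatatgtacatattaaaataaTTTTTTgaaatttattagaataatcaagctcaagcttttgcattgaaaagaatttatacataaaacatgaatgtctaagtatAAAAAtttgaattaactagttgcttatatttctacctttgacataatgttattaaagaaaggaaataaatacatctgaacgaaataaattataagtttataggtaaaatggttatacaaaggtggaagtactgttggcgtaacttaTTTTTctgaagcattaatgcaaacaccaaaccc
Both polymerases to the top strand, chrI:1360501-1360800, between fin1 and pas1: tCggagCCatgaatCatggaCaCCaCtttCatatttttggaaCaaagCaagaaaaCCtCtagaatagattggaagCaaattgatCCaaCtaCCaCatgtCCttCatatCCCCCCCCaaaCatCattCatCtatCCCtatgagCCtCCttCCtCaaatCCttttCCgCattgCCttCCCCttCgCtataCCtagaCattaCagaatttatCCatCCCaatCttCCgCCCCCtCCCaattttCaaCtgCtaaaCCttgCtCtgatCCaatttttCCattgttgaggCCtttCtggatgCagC
Polε to the top strand, chrI:3499801-3500100, in the coding sequence of shd1: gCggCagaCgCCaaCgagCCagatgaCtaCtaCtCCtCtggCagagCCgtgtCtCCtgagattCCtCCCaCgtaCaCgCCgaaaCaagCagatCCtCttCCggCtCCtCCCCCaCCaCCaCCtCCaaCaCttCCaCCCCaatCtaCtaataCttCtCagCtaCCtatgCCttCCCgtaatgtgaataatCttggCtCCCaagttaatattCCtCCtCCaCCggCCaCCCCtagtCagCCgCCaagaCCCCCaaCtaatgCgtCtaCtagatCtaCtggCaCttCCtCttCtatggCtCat
Both polymerases to the bottom strand, chrI:3306901-3307200, in the coding sequence of glt1: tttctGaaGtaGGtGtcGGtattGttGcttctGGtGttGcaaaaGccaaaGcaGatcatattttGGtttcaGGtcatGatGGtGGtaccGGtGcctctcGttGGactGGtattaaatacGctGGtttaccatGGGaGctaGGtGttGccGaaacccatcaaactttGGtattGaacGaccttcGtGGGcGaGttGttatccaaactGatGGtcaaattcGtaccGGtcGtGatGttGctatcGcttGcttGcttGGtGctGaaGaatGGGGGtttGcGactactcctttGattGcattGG
Polε to the bottom strand, chrI:3984601-3984900, in the coding sequence of SPOM_SPAPB18E9.04C: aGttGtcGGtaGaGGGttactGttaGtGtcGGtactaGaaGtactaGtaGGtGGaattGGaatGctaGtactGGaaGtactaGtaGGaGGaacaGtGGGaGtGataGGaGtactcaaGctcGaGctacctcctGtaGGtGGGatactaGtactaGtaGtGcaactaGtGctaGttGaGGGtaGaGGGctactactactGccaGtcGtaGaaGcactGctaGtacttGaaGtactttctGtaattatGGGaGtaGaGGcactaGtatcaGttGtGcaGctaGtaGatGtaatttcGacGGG

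The origin bin had 24.0% GC, and 1.03% of the 41905 full bins of the genome had a GC content as low. The bin between fin1 and pas1 had 95 C and 36 G, and 0.191% of bins had a GC skew, (G - C)/length, as low as its -0.197. The shd1 bin had 117 C and 45 G, the lowest skew of those shown. The glt1 bin had 85 G and 55 C, and the SPOM_SPAPB18E9.04C bin had 94 G and 43 C.

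The question was how far the tracks of Polε and Polδ mirrored each other across the genome. Strand use differed between the polymerases in 27863 of 41867 bins, or 66.6% (edgeR's quasi-likelihood test of strand by polymerase, Benjamini-Hochberg adjusted p below 0.05). Polε leaned to the top strand relative to Polδ in 13874 of these bins (33.1% of those tested) and to the bottom strand in 13989 (33.4%). The median size of the log2 ratio between the strand ratios of the polymerases was 3.23 in the bins called. The median size of the Polα track was 0.451 in the bins called and 0.173 in the other 14004 bins, a description only, since the Polα tracks closely follow those of Polδ. With experiment as a block, 32740 bins (78.2%) were called. In windows of 3 kb, 3623 of 4192 (86.4%) were called without it.

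The first bin named toward the top strand lay on chromosome I from 3791701 to 3792000, across emc5 and rad50, a DNA repair gene. It had Polε tracks of 0.943 and 0.940 in experiments 1 and 2, against Polδ tracks of -0.807 and -0.707 (log2 7.94, standard error 0.53, adjusted p = 0.000277, edgeR). Its 3 kb window had a log2 ratio of 2.07, still past the threshold. That window ends with this bin and reaches left into the annotated centromere of chromosome I. Sequence to the right of the bin was not covered. The windows of the other named bins of this test had 5.52 to 6.41 toward the top strand and -6.61 to -5.48 toward the bottom strand. The first bin named toward the bottom strand lay in msc1 on chromosome I from 1662001 to 1662300. The msc1 bin had Polε tracks of -0.887 and -0.827, against Polδ tracks of 0.805 and 0.811 (log2 -6.95, standard error 0.48). Both bins were near-complete mirror images, with each polymerase almost alone on its strand.
Another named bin, in pma1 (chromosome I, 3873601 to 3873900), which encodes the proton pump of the plasma membrane, was less even. Its Polε tracks were -0.438 and -0.494, against Polδ tracks of 0.916 and 0.921, so that Polδ was nearly confined to the top strand while Polε used both.

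At the scale of single bins the mirror was incomplete. The tracks had opposite signs in 77.3% of bins when the experiments were averaged. They were opposite in both experiments in 26293 bins (62.8%) and on the same strand in both in 6318 bins (15.1%). The tracks of Polε and Polδ correlated at r = -0.699 in experiment 1 and r = -0.512 in experiment 2, over 41867 bins. Across experiments the values were -0.767 for Polε of experiment 1 with Polδ of experiment 2, and -0.639 the other way. Within a polymerase, experiments 1 and 2 correlated at r = 0.836 for Polε and r = 0.887 for Polδ. In windows of 3 kb the mirror was closer, with r = -0.921 and -0.902 between the polymerases and r = 0.982 and 0.988 between the experiments of Polε and of Polδ. Bins and windows come from the same 4 libraries, and these values are descriptions.

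The tracks were also split into a mirrored component, (Polε - Polδ)/2, and a shared component, (Polε + Polδ)/2, in which both lean to the same strand. The mirrored component had an SD over bins of 0.461 in experiment 1 and 0.392 in experiment 2, and it correlated between the experiments at r = 0.977. The shared component had an SD of 0.195 and 0.223 and correlated at r = 0.404. In windows of 3 kb the SD of the shared component was 0.0930 and 0.0892, and the correlation was 0.720. The mirrored component was the larger and the more repeatable of both at either scale. By chromosome, the tracks of experiment 1 correlated at r = -0.691 on I, -0.676 on II and -0.752 on III, and those of experiment 2 at -0.509, -0.479 and -0.573.

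**Figure D1:**
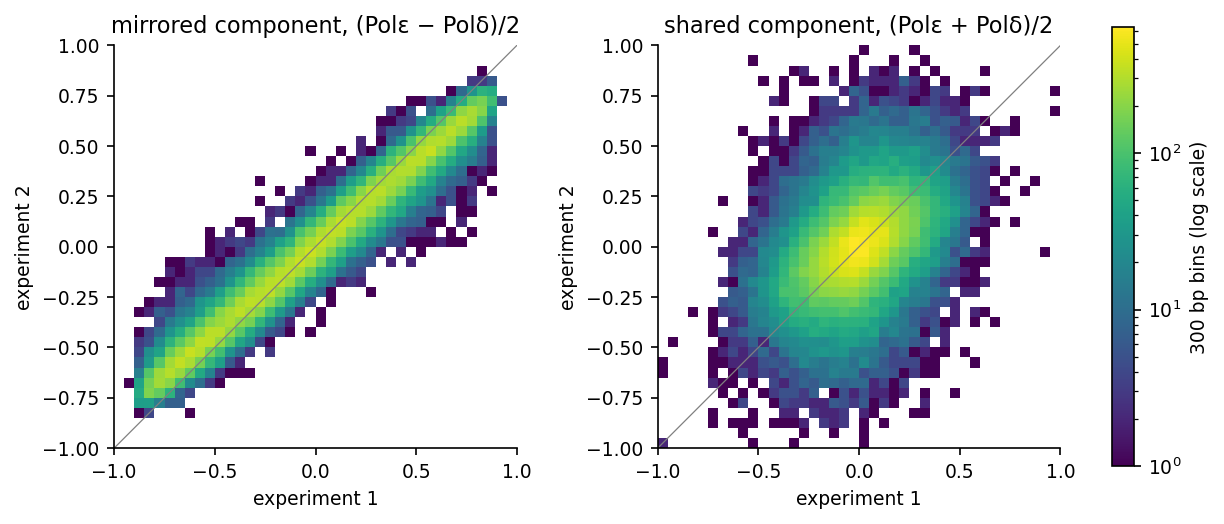
Mirrored component (left) and shared component (right) of the Polε and Polδ tracks in each 300 bp bin, experiment 1 on the horizontal and experiment 2 on the vertical axis, both without unit from -1 to 1, with colour for the number of bins on a log scale. The mirrored components lie along a line (r = 0.977), while the shared components form a broad cloud around 0 (r = 0.404).

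Opposite signs were more frequent and the tracks larger where Polα showed forks running mainly one way. Fork direction was read from Polα, whose track is positive where most forks move leftward and negative where most move rightward. In 6190 bins with a Polα track under 0.1 in size, Polε and Polδ had opposite signs in 59.0%. That share was 81.3% for Polα between 0.3 and 0.5, and 96.4% in the 3944 bins with Polα of at least 0.7. In the last class, Polε had a mean track against the direction of Polα of -0.666 and -0.428 in experiments 1 and 2, and Polδ a mean track along it of 0.797 and 0.744. The median size of the sum of both tracks was 0.277 in the lowest Polα class and 0.187 in the highest. Polα tracks closely follow those of Polδ, so classes by Polα also sort bins by Polδ, and these values are a description. A track averages over forks of both directions, so weak tracks in the low classes do not by themselves show a weaker division.

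Over the 12608 bins with a Polα track of at least 0.5 in size (6267 with leftward and 6341 with rightward forks), Polε had 79.4% and 72.3% of its counts on the leading strand in experiments 1 and 2. Polδ had 85.4% and 82.5% of its counts on the lagging strand. The share of Polε was lower in both experiments, by 6.02 and 10.2 percentage points (mean difference -8.10, two-sided exact permutation test, p = 0.33, the smallest that 2 libraries against 2 allow). The direction of the fork made little difference to either polymerase. Polε had 79.0% and 71.8% leading counts on leftward forks, and 79.9% and 72.9% on rightward forks. Polδ had 85.7% and 82.7% lagging counts on leftward forks, and 85.2% and 82.3% on rightward forks.

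The size of this gap moved with how Polα was read. At 300 bp the Polα track of an experiment correlated with the Polδ track of the same experiment at r = 0.971 and 0.956, and with that of the other experiment at r = 0.864 and 0.850. With the Polα track of the other experiment the mean gap was -5.43 points, and with Polα averaged over 3 kb, an alternative added after seeing the data, it was -4.17 points (exact permutation p = 0.67). In that setting Polε had 82.9% and 75.7% on the leading strand, against 84.6% and 82.3% of Polδ on the lagging strand. The part that this likeness of Polα and Polδ had in the gap was not tested.

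Origins were the sites where the tracks traded places. From the Polα track alone, 4455 origins were called and 249 had an efficiency of at least 40%. Efficiency is the size of the Polα change of strand across an origin, as a percentage of a full change from one strand to the other. The most efficient one, at 85.5%, had its peak bin on chromosome III from 369901 to 370200, printed above. From 0.9 to 3 kb left of the peak bin, Polε had tracks of -0.825 and -0.519 in experiments 1 and 2, against Polδ tracks of 0.895 and 0.847. On the right the Polε tracks were 0.870 and 0.634, against -0.858 and -0.821 for Polδ. The groups did not overlap on either flank, and every library changed sign between 0.6 kb left and 0.3 kb right of the peak bin.

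In the peak bin itself the Polε tracks were 0.721 and 1.00, against -0.798 and 0.0323 for Polδ. Experiment 2 had few reads there, with 39 counts for Polε and 31 for Polδ, against 551 and 684 in experiment 1. The bin to its left had 19 and 23 counts in experiment 2, so single-bin tracks of that experiment are weakly measured at the AT-rich centre of this origin.

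**Figure D2:**
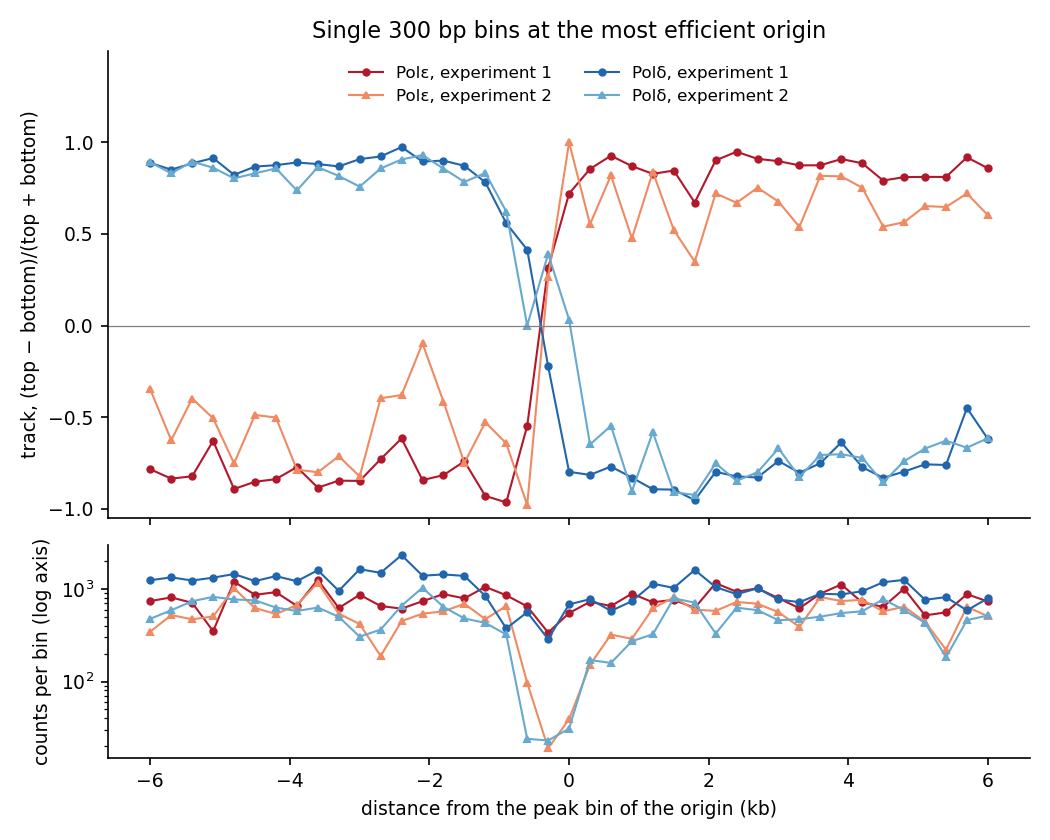
Polymerase tracks (upper plot, no unit) and counts per bin (lower plot, log axis) of single 300 bp bins against the distance in kb from the peak bin of the most efficient origin, with a line for each of the 4 libraries. Polε changes from the bottom to the top strand where Polδ changes from the top to the bottom strand, and the counts of experiment 2 drop to 19 to 39 per bin at the centre.

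Averaged over the 249 efficient origins, the height of the tracks from 0.9 to 3 kb on both sides was 0.648 and 0.468 for Polε in experiments 1 and 2, against 0.610 and 0.560 for Polδ. The groups overlapped, and the mean difference of -0.0270 was within the spread between experiments (two-sided exact permutation test, p = 1). In experiment 1 Polε was higher by 0.0385, and in experiment 2 its height was below that of Polδ, with a difference of -0.0925. Polε of experiment 2 was thus the lowest of the 4 libraries, and the direction of the mean difference rested on that experiment.

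The midpoint of the change of strand lay at -149 and -42.6 bp from the centre of the peak bin for Polε, against -148 and -152 bp for Polδ. The origin calls are centred on the edge between the peak bin and its left neighbour, so an offset near -150 bp is a change of strand at that edge. The mean difference of 54.2 bp was under the width of one bin (exact permutation p = 0.67). It came from Polε of experiment 2, since within experiment 1 the difference was -1.22 bp. Counts scaled to equal library totals were next summed per strand to give the share of Polε in the counts of both polymerases. On the top strand this share was 14.7% and 23.2% left of the origins and 78.9% and 76.3% right of them. The bottom strand was the reverse, with 80.9% and 78.3% to the left of the origins, and 16.0% and 23.4% to their right. The share passed its midpoint at -159 and -166 bp on the top strand and at 28.5 and -116 bp on the bottom strand. The hand-over from one polymerase to the other was therefore placed within about one bin on both strands, and a finer position was not detectable in 300 bp bins.

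**Figure D3:**
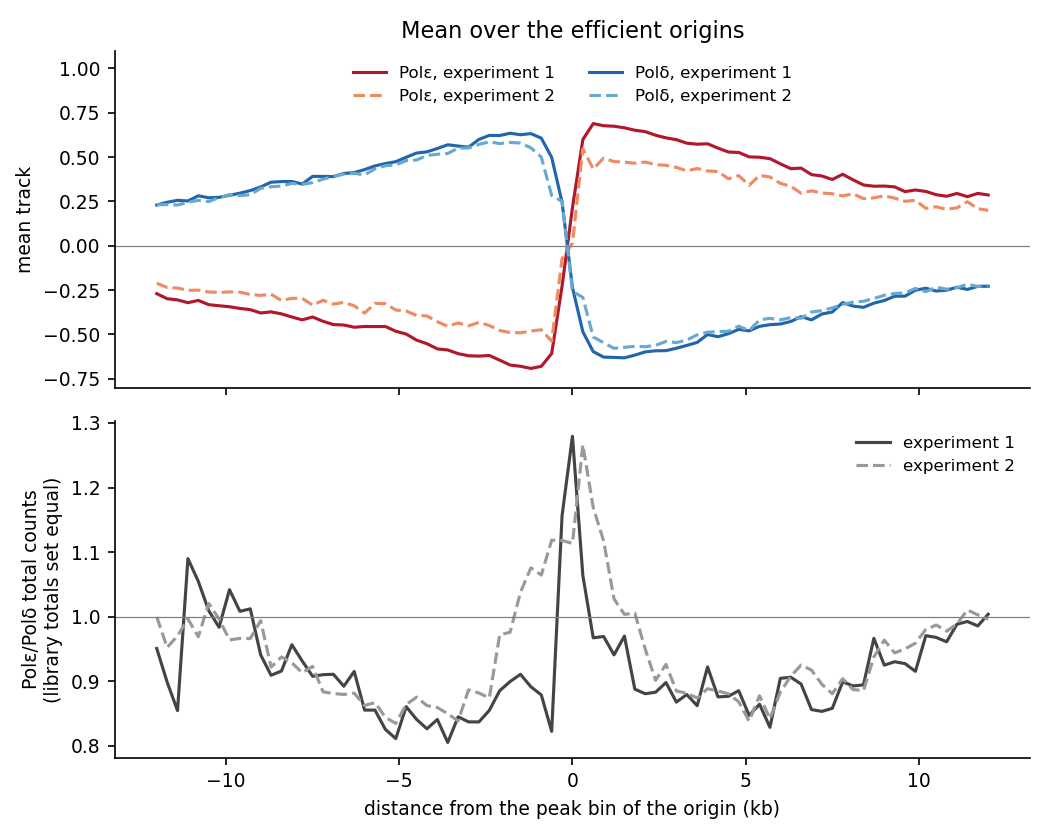
Mean over the efficient origins of the polymerase tracks (upper plot, no unit) and of the ratio of Polε to Polδ total counts with library totals set equal (lower plot), against distance in kb from the peak bin, for experiment 1 (solid) and experiment 2 (dashed). The tracks cross at the origin with heights of 0.648 and 0.468 for Polε and 0.610 and 0.560 for Polδ, and the ratio is lowest a few kb to either side.

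With distance from efficient origins the strand shares of both polymerases moved toward an even split at a similar pace. Here a fork was taken to move away from the nearest efficient origin. Forks from other origins can cross the same bins, so mixed fork direction and a weaker division cannot be told apart in these shares. From 0.9 to 3 kb, Polε had 83.7% and 76.2% of its counts on the leading strand and Polδ had 80.3% and 77.1% on the lagging strand. From 10 to 20 kb the shares were 66.4% and 63.3% for Polε and 62.9% and 62.5% for Polδ. Beyond 40 kb, where 4122 bins lay, they were 49.0% and 48.7% for Polε and 51.3% and 51.2% for Polδ, close to an even mixture. By this reading of fork direction, unlike by Polα, the share of Polε was above that of Polδ in both experiments in each class from 3 to 40 kb, and no test was run on single distances.

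The total of both strands also changed with distance. With library totals set equal, Polε had 0.894 and 0.937 times the counts of Polδ from 0.9 to 3 kb from efficient origins in experiments 1 and 2. The ratio was 0.852 and 0.837 from 3 to 6 kb, 0.910 and 0.922 from 6 to 10 kb and 1.05 and 1.05 from 10 to 20 kb. Farther out it was 1.09 and 1.08 from 20 to 40 kb and 1.104 and 1.094 beyond 40 kb. From 0.9 kb outward Polε was thus relatively poorer than Polδ up to 10 kb from efficient origins and richer farther away, in both experiments. The median GC content of these classes lay between 35.3% and 36.7%. In the peak bins themselves, which had a median GC content of 26.3%, the ratio was 1.48 and 1.04. At 0.3 to 0.6 kb it was 0.949 in experiment 1 and 1.15 in experiment 2, so the experiments differed in direction there. From 3 kb outward the same course was found in strains with extra Polδ genes, whose ratio from 3 to 6 kb was 0.837 and 0.805 in 2xPolD and 0.864 and 0.849 in 4xPolD. Those strains carry the same polymerase alleles at the native genes, a hygR disruption of rnh201, and more copies of the Polδ genes. The extra cdc6 copies are mutated in their strains for Polδ and WT in their strains for Polε.

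**Figure D4:**
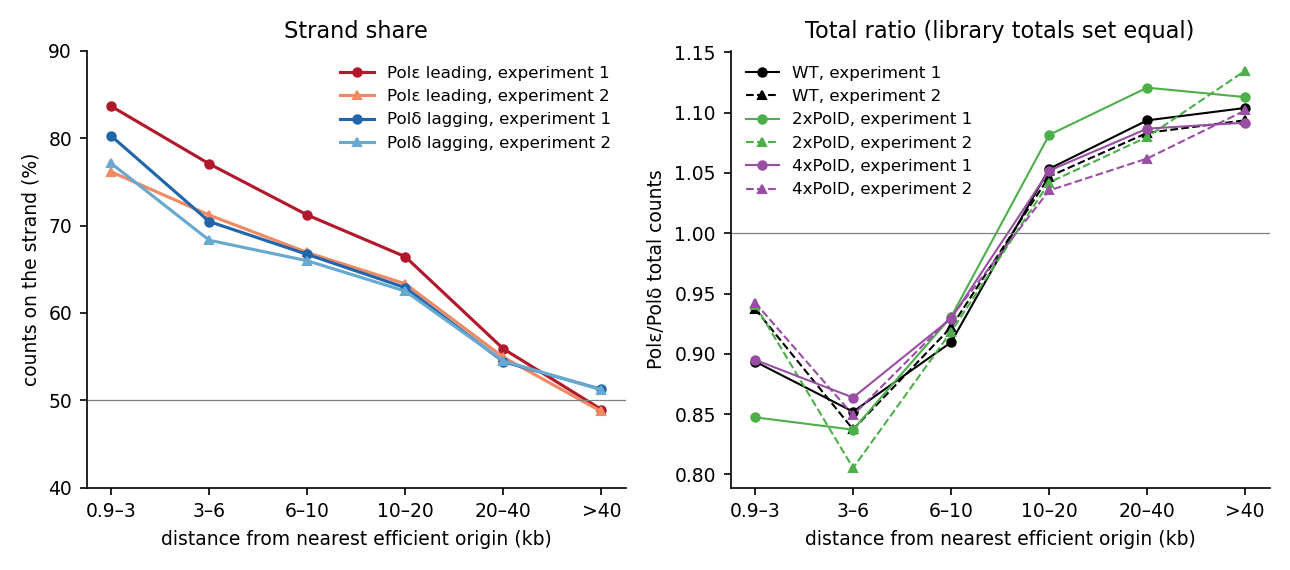
Left, percent of counts on the leading strand for Polε and on the lagging strand for Polδ; right, ratio of Polε to Polδ total counts with library totals set equal, in WT, 2xPolD and 4xPolD, both against distance in kb from the nearest efficient origin. The strand shares of both polymerases fall toward 50% beyond 40 kb, and in WT the ratio is 0.852 and 0.837 from 3 to 6 kb and 1.104 and 1.094 beyond 40 kb.

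Across bins the test of totals called 0 of 41867 bins (0%, edgeR's quasi-likelihood test with TMM scaling), with 2486 bins at an unadjusted p below 0.05 and 1309 called by DESeq2 (4.29%) of the 30503 for which it gave an adjusted p. With experiment as a block, 1519 bins (3.63%) were called, 615 with more Polε (1.47%) and 904 with less (2.16%). Bins with less Polε lay at a median of 5.4 kb from an efficient origin and had a median Polα track of 0.736 in size, against 13.8 kb and 0.342 over all bins. Bins with more Polε lay at a median of 12.9 kb and had a median Polα track of 0.324 in size. In windows of 3 kb with the block, an alternative added after seeing the data, 2327 of 4192 (55.5%) were called, and 0 without it. The log2 ratio of totals correlated between the experiments at r = 0.456 over bins and r = 0.833 over windows.

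The first bin named toward Polε lay between tif1 and etd1 on chromosome I from 5087101 to 5087400. It had 1579 and 1057 counts for Polε, against 625 and 372 for Polδ, a log2 ratio of 1.30 (adjusted p = 0.834, and 0.0266 with the block, edgeR). Toward Polδ, a bin in ags1 (chromosome III, 1374901 to 1375200), a gene for synthesis of cell wall alpha-glucan, had 720 and 561 counts for Polε, against 2024 and 1059 for Polδ (log2 -1.32, adjusted p = 0.834, and 0.0266 with the block, edgeR). In both bins the Polε libraries lay on one side of the Polδ library of their own experiment, which the rule for naming bins required. The other bins named toward Polε were 2 in the centromere of chromosome II, one in SPOM_SPAC4A8.06C and one in pfh1, a DNA helicase gene, with log2 ratios of 1.12 to 1.26. Beside the last bin of chromosome III, those named toward Polδ lay in SPOM_SPAC1071.09C, alg11 and vtc4, with log2 ratios of -1.43 to -1.23, within 7.5 kb of an efficient origin.

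The test for departures from a mirror asked where the strand ratio of Polε was not the inverse of that of Polδ. It called 1771 of 41867 bins, or 4.23% (edgeR, adjusted p below 0.05), with the sum of the log2 strand ratios toward the top strand in 858 (2.05%) and toward the bottom strand in 913 (2.18%). With experiment as a block it called 3101 bins (7.41%). In windows of 3 kb it called 318 of 4192 (7.59%), and 1172 (28%) with the block, the last an alternative added after seeing the data. Tested with limma on log2 strand ratios, 0 bins were called, with 13615 at an unadjusted p below 0.05 when each library was first scaled to one spread and 11852 without that scaling, the last added after seeing the data. Leaving out one library gave between 187 and 9490 calls, with 9490 and 7044 without Polε of experiments 1 and 2 and 187 and 214 without Polδ of experiments 1 and 2. The number of departures is therefore poorly fixed by these libraries.

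Of the 1771 bins, 1106 (62.5%) had both polymerases on the same strand, against 22.7% of all bins tested. Opposite tracks with a larger Polε were found in 441, and with a larger Polδ in 224, against 16879 and 15503 of all bins tested. Among the 318 windows called, both polymerases were on the same strand in 125, against 492 of all 4192 windows. The test itself favours such bins and windows, so these shares are a description. The lean recurred in other strains: the sum of the tracks had the sign seen in WT in all 4 pairs of libraries of 2xPolD and 4xPolD in 99.7% of the bins called, against 56.9% of all bins. These shares compare unlike bins, since the test picks large sums that repeat. The median size of the sum was 0.727 in the bins called and 0.222 in all bins. Its sign was the same in both WT experiments in 100% and 65.5%. In 596 of the 1771 bins the test of strand division was not passed, and in 1175 it was. This is a share similar to that of all bins, of which 27863 of 41867 (66.6%) passed it.

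The bin between fin1, a mitotic kinase gene, and pas1, a cyclin gene, had the same strand for both polymerases in every library. Polε tracks were 0.595 and 0.552 in experiments 1 and 2, against Polδ tracks of 0.552 and 0.542 (sum of log2 strand ratios 3.65, standard error 0.41, adjusted p = 0.0431, edgeR). The Polα track there was 0.202, and the nearest efficient origin was 60.3 kb away. Its 95 C and 36 G on the top strand are shown above.
The glt1 bin, in the gene for glutamate synthase, had Polε tracks of -0.509 and -0.543, against Polδ tracks of -0.626 and -0.590 (sum -3.73, standard error 0.41, adjusted p = 0.0431). In these bins the 4 libraries lay within a narrow range on one strand.

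In the named bins of shd1 and SPOM_SPAPB18E9.04C, Polε carried the departure. The shd1 bin had Polε tracks of 0.945 and 0.936, against Polδ tracks of -0.275 and -0.348, so Polε was almost wholly on the top strand while Polδ was spread over both (sum 4.09, adjusted p = 0.0431, edgeR). In the 3 kb window around it the sum was 0.221 (adjusted p = 0.704, edgeR). The SPOM_SPAPB18E9.04C bin was its counterpart, with Polε tracks of -0.961 and -0.923, against Polδ tracks of 0.159 and 0.130 (sum -4.67, adjusted p = 0.0431), and a sum of 0.000405 in its 3 kb window. These departures were local to their bins. In mis4 (chromosome I, 396901 to 397200), a cohesin loader gene, both polymerases leaned to the bottom strand, with Polε tracks of -0.478 and -0.655, against Polδ tracks of -0.790 and -0.742. The largest departure by size was the last bin of chromosome III, which holds only the final bases of the chromosome in an rRNA gene. It had Polε tracks of -1 and -0.976, against -1 and -0.996 for Polδ, from 450 and 333 counts of Polε, against 5807 and 1706 of Polδ.

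Departures from the mirror moved with the base composition of the strands, which the test had not used. The values below are over called bins and all bins, not over the printed ones, which were picked by base composition. Bins called toward the top strand had a median GC skew of -0.05, those called toward the bottom strand one of 0.05, and the median of all bins was 0. In the decile of bins with the lowest GC skew, which are rich in C on the top strand, the sum of both tracks averaged 0.172 in experiment 1 and 0.309 in experiment 2. In the decile with the highest GC skew it averaged -0.185 and -0.317. The shares called in the mirror test were 8.59% and 9.52% in these outer deciles, against 2.19% to 2.61% in the 4 middle ones.

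Both polymerases shared this lean and Polε showed more of it. In a regression on GC skew and AT skew over all bins, the Polε track changed by -0.158 and -0.291 for each 0.1 of GC skew in experiments 1 and 2, and the Polδ track by -0.0628 and -0.114. These skews took up 9.29% and 25.8% of the variance of the sum of the tracks, but 0.286% and 1.37% of that of the mirrored component. With them taken out, an alternative added after seeing the data, the Polε and Polδ tracks correlated at r = -0.722 and -0.609. The part of base composition in each single departure was not tested.

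**Figure D5:**
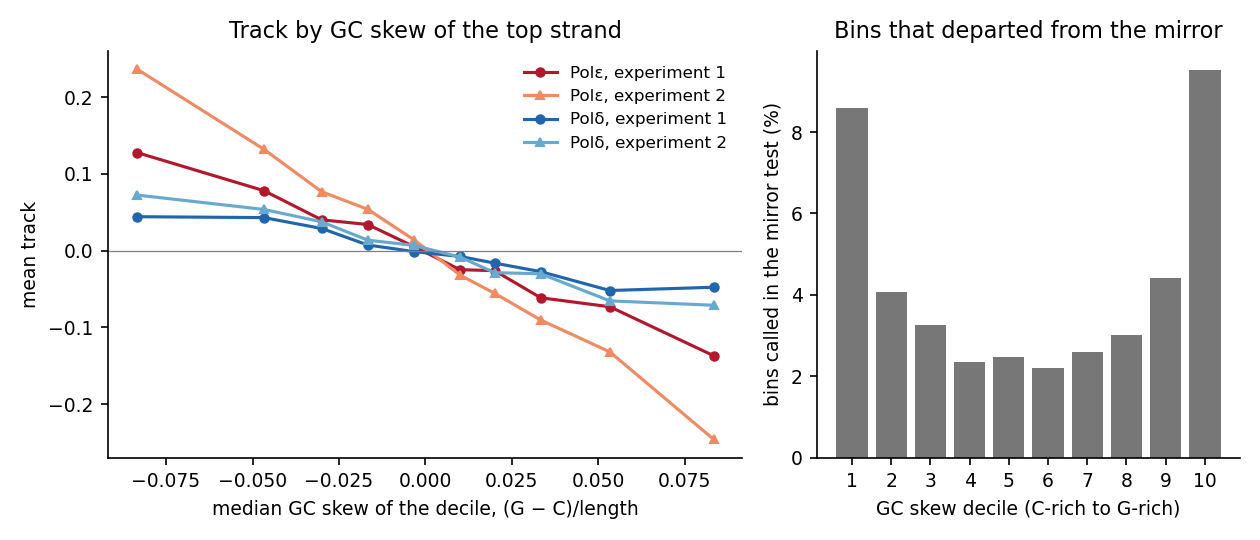
Left, mean track (no unit) of each of the 4 libraries against the median GC skew, (G - C)/length of the top strand, of deciles of the bins; right, percent of bins called in the mirror test in the same deciles. All 4 libraries lean to the top strand where it is rich in C, Polε of experiment 2 most (0.236 in the lowest decile), and calls are most frequent in the outer deciles (8.59% and 9.52%).

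Several regions stood apart in both tracks. Over the annotated gap between coding genes at each of the 3 centromeres, heterochromatic repeats flank the core. The tracks pooled over all bins of each gap were close to 0. Polε had tracks between -0.00610 and 0.0298, and Polδ between 0.00704 and 0.0397, over 130 to 260 bins. Pooling lets bins of opposite lean cancel, so single bins may still be divided. The named bin at 1646401 in the centromere of chromosome II had Polε tracks of 0.760 and 0.691, against -0.445 and -0.295 for Polδ. Reads of near-identical repeat copies can be placed in either copy, so values there are uncertain. Between mat1 and mat3 in the mating-type region of chromosome II (63 bins), both polymerases leaned to the bottom strand. Polε had tracks of -0.395 and -0.0885, against -0.166 and -0.0600 for Polδ, so the size differed more between the experiments of Polε than between the polymerases within an experiment.

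The ends of chromosome III border the rRNA gene repeats, of which the assembly holds only part. The left 30 kb had Polε tracks of 0.122 and 0.242, against 0.486 and 0.488 for Polδ, both on the top strand. The right 30 kb had -0.0505 and -0.179 for Polε, against -0.521 and -0.503 for Polδ, both on the bottom strand. Polε totals were 0.801 and 0.608 times those of Polδ on the left and 0.793 and 0.619 times on the right. The mean bin of the left end had 10.7 to 19.6 times the counts of the median bin. The outer 30 kb of chromosomes I and II had more Polε, with ratios of 1.05 to 1.26 over both experiments and all 4 ends.

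The widest gap between efficient origins ran over 205.8 kb of chromosome I, from 4533301 to 4739400. It was split into 4 segments of equal length. In the segment at its left end Polε had tracks of 0.303 and 0.243, against -0.320 and -0.293 for Polδ. At its right end the Polε tracks were -0.421 and -0.351, against 0.356 and 0.340 for Polδ. The segments between had Polε tracks of 0.0276 to 0.114, against Polδ tracks of -0.195 to -0.0346, so the signs stayed opposite while the tracks were weaker. The ratio of totals was 1.03 and 1.07 in the left segment and 1.19 to 1.26 over the others. The gene cdc45, for a helicase subunit, lay in the right segment, with Polε tracks of -0.771 and -0.661, against 0.462 and 0.474 for Polδ.

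Genes of the replication machinery were used to follow the tracks in named loci. Of 41 listed genes, 40 had bins to test, ura4 being deleted, and in 36 of these Polε and Polδ lay on opposite strands in both experiments, or 90% against 81.8% of all 4971 protein-coding genes with at least 2 bins. The counts by group are a description and are not set apart from that background. The tracks were opposite in 4 of 4 Polε genes, 3 of 4 Polδ genes and 3 of 4 Polα-primase genes. The count was 6 of 6 for the sliding clamp and its loader, and 11 of 12 for the helicase and its anchor mcl1. It was 3 of 3 for genes that join Okazaki fragments and 3 of 4 for RNase H genes, rnh201 by its 3 remaining bins. The gene of the catalytic subunit of Polε, cdc20, had Polε tracks of 0.441 and 0.356, against -0.576 and -0.50 for Polδ. That of Polδ, cdc6, had Polε tracks of 0.733 and 0.550, against -0.648 and -0.615. The division was sharp in mcm3, for another helicase subunit, which lies to the right of the most efficient origin, with 0.866 and 0.654 for Polε, against -0.811 and -0.793 for Polδ. It was as sharp in ade6, a purine synthesis gene, with -0.813 and -0.665 for Polε, against 0.876 and 0.802 for Polδ.

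Among the 4 exceptions, the Polε tracks were weak. In cdc27, for a Polδ subunit, Polε had -0.0180 and 0.181, against -0.317 and -0.231 for Polδ. In mcm6, another helicase gene, all tracks were on the top strand, with 0.0804 and 0.0186 for Polε, against 0.175 and 0.112 for Polδ. In spp1, for the catalytic subunit of primase, Polε had -0.149 and 0.0349, against 0.150 and 0.202 for Polδ. In rnh202, for an RNase H2 subunit, Polε had 0.0253 and -0.0105, against -0.273 and -0.218. In each of the 4 genes a Polε track of at least one experiment was under 0.1 in size, as it was in pol1 and dpb3, which counted as opposite. The pol1 gene, for the catalytic subunit of Polα, had Polε tracks of -0.0778 and -0.0646, against 0.0937 and 0.0588 for Polδ.

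Transcription and replication run together in some genes and against each other in others. Protein-coding genes were therefore grouped by the Polα track along their own coding strand. Polα tracks closely follow those of Polδ, so this grouping also sorts genes by Polδ, and the values by class are a description. Polε and Polδ lay on opposite strands in 97.2% of the 1619 genes in which forks mainly followed transcription and in 98.9% of the 1138 genes in which forks mainly ran against it. The share was 74.5% in the 2214 genes with a Polα track under 0.3 in size and 87.5% in all 4971 genes. With opposite strands required in both experiments, as for the listed genes above, the shares were 96.2%, 98.3% and 62.8% in these classes. By that measure it was 81.8% in all genes. Along the coding strand, Polε had mean tracks of 0.554 and 0.404 in co-directional genes, against -0.574 and -0.550 for Polδ. In head-on genes the means were -0.607 and -0.488 for Polε, against 0.562 and 0.508 for Polδ. The sum of both tracks averaged -0.0201 and -0.146 in co-directional genes and -0.0453 and 0.0198 in head-on genes, with opposite signs in experiment 2 and the same sign in experiment 1.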

How the data were processed

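Pu-Seq libraries of WT strains for Polε and Polδ were compared, with WT Polα used for fork direction and origins. The authors mapped reads with Bowtie2 (build ASM294v2 in the submitters' notes) and deposited raw counts of rNMP sites for each strand in 300 bp bins, without normalization. No source used here gives the version of Bowtie2 or how repeats and duplicates were handled. One set of libraries was made by alkaline cleavage and another by a modified GLOE-Seq protocol, and which experiment used which is not stated. Bin counts match the chromosome lengths of ASM294v3, and the correlation of totals with GC content in the last 10% of each chromosome peaked without a shift, so its annotation was used.

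Runs of experiment 1 were summed: they differed by a chi-square per degree of freedom of 1.097 and 1.106, against 40.5 and 25.6 between experiments. Bins with at least 10 counts in each of the 4 libraries entered the tests of edgeR 4.0.16, run in R 4.3.3 (quasi-likelihood test, Benjamini-Hochberg adjustment, threshold 0.05). Terms were strand by polymerase for division, the same after swapping the strands of Polε for departures from a mirror, and totals with TMM scaling. Positions are 1-based. Origins were called after smoothing over 3 bins, dropping peaks under the 30th percentile and keeping maxima at least 4 bins apart. Values of 2 libraries against 2 had two-sided exact permutation tests in Python 3.11.15 with scipy 1.17.1. Experiment numbers pair the libraries, since the labels and the methods describe experiments that each covered every polymerase. Deviations between experiments correlated between Polε and Polδ at r = 0.562 for strand ratios and r = 0.787 for totals. DESeq2 1.42.0 and limma 3.58.1 served as alternatives.

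On simulated data of the 41867 bins with 200 changed, edgeR recovered 21.0% of log2 changes of 2 and 95.5% of 4 for division, 13.5% and 96.5% for departures, and 67.5% and 97.0% for totals. Recovery of a log2 change of 1 was 0%, 0% and 1.50%. At a log2 change of 4, 11, 14 and 26 unchanged bins were also called. The simulation differed from the data, in which 66.6% of bins were called for division. Simulated totals had one rate per bin over all libraries, without a difference between experiments. In the data, a bin with a log2 ratio of totals of -3.18 was not called. These rates need therefore not hold for the data.

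Named items were, per test and direction, 5 bins at least 3 kb apart, taken by adjusted p among those whose change had one sign in experiments 1 and 2, plus a list of replication and marker genes and of sites. Members and lists were chosen with earlier results of these data known.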

Additional observations from a re-analysis of the deposited data

How the results depend on the processing

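With 2 libraries a polymerase, counts of calls rest on few degrees of freedom, and without one library the lone one is assumed to vary like the pair. The number of bins in which strand use differed kept within 1.5 times of 27863 under every alternative run on bins, from 22105 to 28983 with a library left out, and 32740 with experiment as a replicate block. Departures from a mirror were 1771, against 3101 with the replicate block, 13103 with DESeq2, 318 of 4192 windows of 3 kb, 1172 windows with the block, 187 to 9490 with a library left out, and 0 with limma, both with the spread of libraries evened and as measured. Totals differed in 0 bins, against 1519 with the replicate block, 2327 windows with it, 1309 with DESeq2, and 1 to 299 with a library left out. DESeq2 gave no adjusted p for 11364 bins of totals, and its strand tests used library totals as size factors. In bins, the block also brought the named bins of totals past the threshold and changed no other call of a named bin. In windows it brought 9 of 10 named bins of totals and 4 of departures past the threshold. Over all settings, the named bins of strand division kept direction and call in 110 of 110 checks, and those of departures in 112, with 27 below the threshold, of which 20 were with limma, and 1 reversed. The gap in strand share by Polα kept its sign in every setting of Polα run, from -10.5 to -4.17 points, and from -10.2 to -6.02 with an experiment left out. Read from the nearest origin it had the other sign from 3 to 40 kb, as with 77.1% and 71.2% for Polε against 70.5% and 68.3% for Polδ from 3 to 6 kb. The difference in height at origins was -0.0270 and took values of -0.0925 and 0.0385 with experiments 1 and 2 left out. The difference in crossover was 54.2 bp, with 110 bp and -1.22 bp when experiments 1 and 2 were left out and 26.1 to 90.2 bp in the other settings. The mean track correlation of -0.605 was -0.912 in windows of 3 kb and -0.666 with base skew taken out, which was added after seeing the data, as were the first run alone for this correlation, the 3 kb Polα track, limma as measured and the block with windows. Among named bins, the departure at SPOM_SPAPB18E9.04C was -4.67 in its bin and 0.000405 in the 3 kb window around it. The causes were not tested, and single AT-rich bins of experiment 2 are limited by depth.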
